A study of Mus musculus with 8 samples.

Results

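The mitosis and G2/M genes described here are 39 mouse genes whose products carry a cell from late G2 through division, among them the B cyclins and Cdk1, the Aurora and Polo kinases, the spindle checkpoint, the kinetochore and the spindle motors. They were chosen by gene symbol, with earlier results of these data known. A member was tested where both arrays of some group measured its brightest probe well above background. This held for 38 of the 39, out of 25804 genes and unnamed probes tested in all. The cells were 3T3-L1, a mouse preadipocyte line that forms fat cells in culture, grown in 10% serum and kept for 1 week in adipogenic medium. They then received 2-fold diluted supernatant of human HL-60 leukemia cells. Those cells had been kept for 5 days with PMA at 30 nM, a phorbol ester that turns them macrophage-like, so both supernatants came from PMA-treated cells. In the knockdown (KD) arm the HL-60 cells had reduced USP2, a deubiquitinating enzyme, and in the control arm they were mock controls. The 3T3-L1 cells were of the same line in every group. The 4 groups were KD supernatant for 6 h, control supernatant for 6 h, KD supernatant for 3 h and control supernatant for 3 h, with 2 one-colour arrays each. USP2 was lowered in the human cells, whose RNA was not on these arrays, so the knockdown itself could not be checked here. Cells without supernatant were not analysed here.

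Genes of this class are transcribed in waves: they are low in G1 and in resting cells, rise through G2, and their products are largely destroyed at the end of mitosis by the anaphase-promoting complex (APC/C), a ubiquitin ligase. Resting cells hold them down through the DREAM complex, while B-Myb and FoxM1 together with the same MuvB core activate them in cycling cells. Many of their promoters carry a CHR element, which the MuvB subunit Lin54 binds, near CCAAT boxes, which NF-Y binds. 3T3-L1 cells divide during an early phase of adipogenic differentiation and then leave the cycle.

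Between 50.7% and 55.9% of the spots were well above background on an array, and 37 of the 38 tested members were well above background on all 8. Of 24 adipocyte markers, 13 were measured above background on every array and 9, among them Adipoq, Cfd and Lep, on none, so the labelled cell type was borne out by a part of its markers. Of 18 markers of preadipocytes and fibroblasts, 17 were measured on all 8 arrays. Of 13 macrophage and leukocyte markers 7 were, and the defining markers Ptprc, Adgre1 and Fcgr3 were well above background on none. The control 6 h arrays correlated least with each other over all genes tested, at 0.988, against 0.993 for KD 6 h, 0.998 for KD 3 h and 0.997 for control 3 h. Of their spots 0.550% and 0.246% lay in locally raised areas of the array, against at most 0.0371% on the other arrays. The arrays of 6 h lay in the second row of the slide and those of 3 h in the first, and KD and control arrays lay in different columns, so time cannot be told apart from slide row, nor supernatant from slide column.

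Set against 3 h, the mitosis and G2/M genes were lower at 6 h with either supernatant. With KD supernatant 35 of the 38 tested members fell and 1 rose, where 22.2% of all genes and probes tested were called lower and 17.7% higher (limma, adjusted p under 0.05). With control supernatant 33 fell and 0 rose, against 23.6% and 16.3% of all tested. In either direction 39.9% of all tested were called with each supernatant. A total of 32 members fell with both supernatants, against 17.8% of all tested. These counts include Aurkb, which had no signal above background at 6 h and was tested through its 3 h arrays alone. Without it 34 of 37 fell with KD, 32 of 37 with control and 31 of 37 with both supernatants. The median member changed by -0.74 on the log2 scale with KD supernatant, to 59.9% of its 3 h level, and by -0.69 with control supernatant, to 62.0%. The medians of all genes and probes tested were -0.11 and -0.07. For 37 of the 38 members all 4 arrays at 6 h lay below all 4 arrays at 3 h. The same held for 28.3% of all genes and probes tested. Aurkb is among these 37, although none of its 6 h arrays was above background, and the members' medians include it too. With KD supernatant 28 of the 36 calls held without any one array, and those of Aurkb, Bub1, Cdc25b, Kif2c, Pttg1, Spc25, Ttk and Ube2c were lost without at least 1 (adjusted p then 0.0505 to 0.165). The array was any one of the 4 with KD supernatant for Cdc25b, Kif2c and Pttg1, and for Pttg1 also either control 3 h array. It was KD 3 h replicate 1 for Ube2c, that or KD 6 h replicate 1 for Aurkb and Bub1, that or KD 6 h replicate 2 for Ttk, and either KD 3 h array or KD 6 h replicate 1 for Spc25. With control supernatant 28 of the 33 calls held, and those of Aurkb, Bub1, Cdk1, Kif2c and Pttg1 did not (adjusted p then 0.0628 to 0.163). The array was any control one for Aurkb, control 3 h replicate 1 for Bub1, control 3 h replicate 2 for Kif2c, either control 3 h array or control 6 h replicate 2 for Pttg1, and either control 3 h array or any KD one for Cdk1. In RNA of whole cultures, fewer cells in mitosis and less RNA per cell cannot be told apart.

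**Figure D1:**
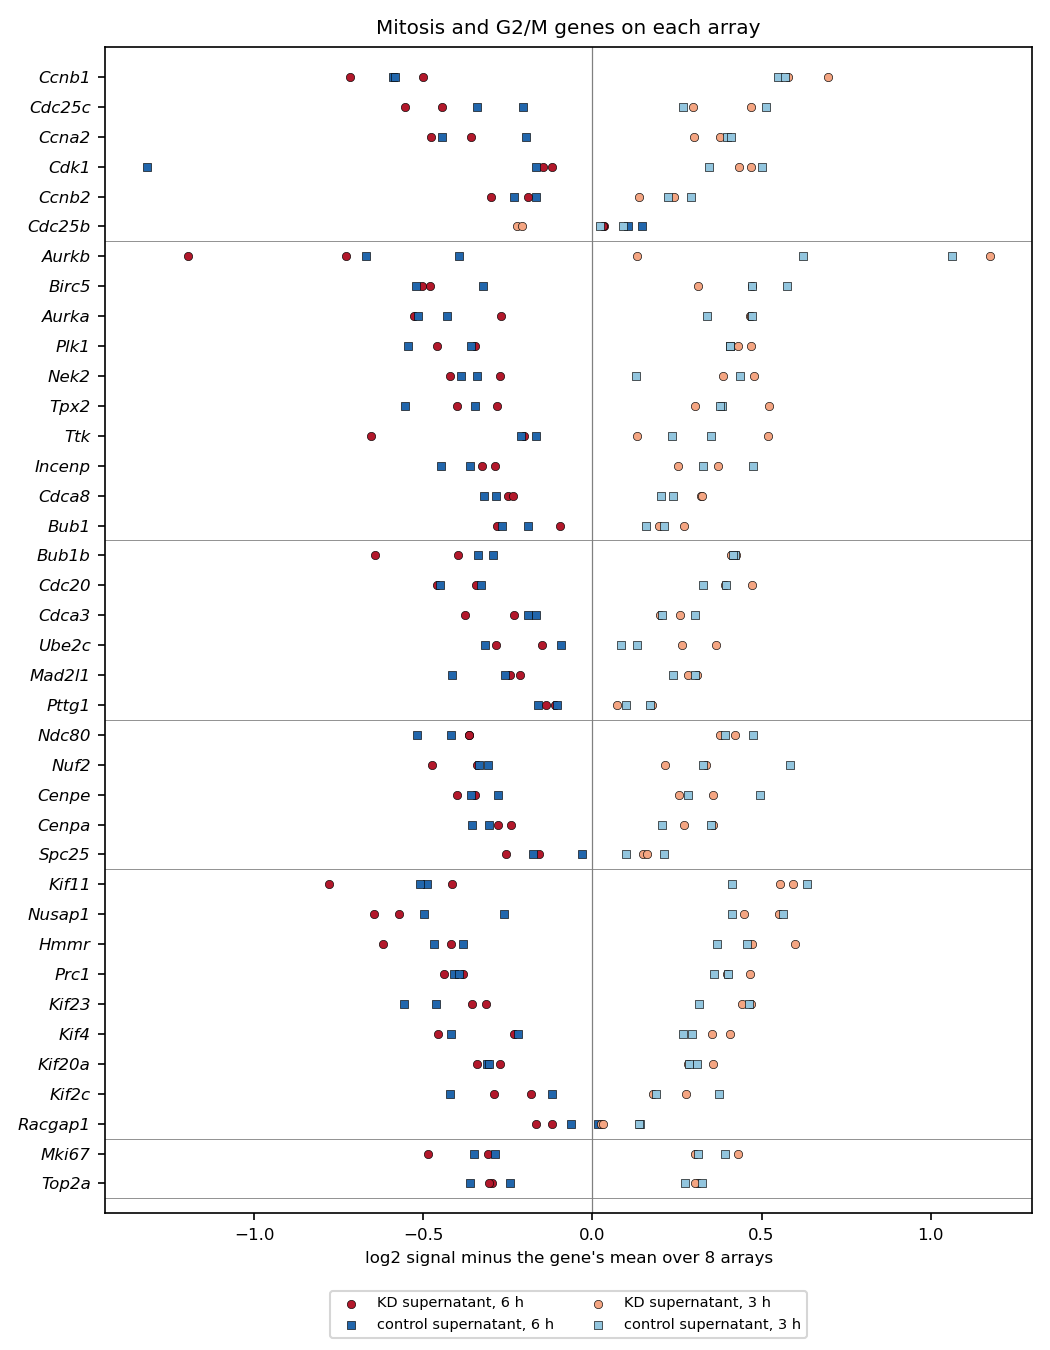
Log2 signal of each tested member on each of the 8 arrays, minus the gene's mean over the 8 arrays, with members in rows grouped by role and 1 point per array (circles KD, squares control supernatant; dark 6 h, pale 3 h). For 37 of 38 members the 4 dark points lie left of the 4 pale points, and Cdc25b is the exception. The 37 include Aurkb, which was not above background at 6 h. Of Cdk1, 1 control 6 h array lies far to the left.

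The counts depended on how the arrays were scaled. Values are relative to each array's 75th percentile of signal. An alternative chosen after the data were seen scaled the arrays to 8 spike-in transcripts added to every labelling, kept by a cut on mean signal. With it 10 members were called lower with KD and 1 with control supernatant, and with no scaling 12 and 18 were. Relative to the 75th percentile, the single spike-in transcripts changed from 3 h by -0.13 to -0.07 with KD. With control supernatant they spread more widely, from -0.42 to -0.09. Spike-in scaling put the median of all genes tested at -0.000476 with KD and at 0.32 with control supernatant. A scaling shifts all genes of an array alike, so the members' medians, then -0.63 and -0.30, lay as far below those of all genes as before (-0.63 and -0.62). Under that scaling the fitted change with control supernatant was above 0 for Ube2c (0.08), Pttg1 (0.12), Spc25 (0.13) and Racgap1 (0.23). Of all genes tested 6.22% were then called lower and 10.9% higher with KD, and 4.21% lower and 19.5% higher with control supernatant. Centring on each array's median gave 27.4% lower and 13.4% higher with KD and 37.7% and 10.3% with control supernatant. No scaling gave 7.04% and 14.3% with KD and 11.1% and 11.1% with control supernatant. The falls below are therefore changes relative to the bulk of the genes on the same arrays. The summed level of the adipocyte markers also moved with time (each array's 75th percentile being 1). At 6 h it was 217 to 228 with KD and 227 to 238 with control supernatant. At 3 h it was 262 to 270 with KD and 270 to 271 with control supernatant. By gene these markers went both ways. Of 14 tested, 5 were called lower and 4 higher with KD, or 35.7% and 28.6%, against 22.2% and 17.7% of all tested. With control supernatant 5 were lower and 3 higher, or 35.7% and 21.4%, against 23.6% and 16.3%. The part of these markers in the result was not tested. The sum over the macrophage and leukocyte markers was 42.9 to 46.0 with KD and 41.2 to 47.1 with control supernatant at 6 h. At 3 h that sum was 56.6 to 58.7 with KD and 46.1 to 48.6 with control supernatant. By gene, of 8 tested, 1 was called lower and 3 higher with KD, or 12.5% and 37.5%. With control supernatant 0 were lower and 3 higher, or 0% and 37.5%, against the same shares of all tested. Their part was not tested either.

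The promoters of these genes share sequence elements that their choice did not use, and 4 are printed to show them beside the measured changes. RefSeq windows of 300 bases, 250 before to 50 after the annotated start (GRCm38.p6), were at hand for 33 of the 39 members in 34 windows. They were searched on both strands for a CHR element (TTTGAA or TTCGAA) and for a CCAAT box (CCAAT), and 1 pair of matches shared letters. A CHR element was in 76.5% of the member windows and in 19.2% of all 32851 windows. A CCAAT box was in 79.4% and 37.4%, and both were in 70.6% and 7.52%. The elements are not particular to the members. In the 61 windows of the other mitosis genes, a list described below, the shares were 70.5%, 68.9% and 50.8%. Within 50 bases of the start, a span chosen after the positions were seen, 70.6% of the member windows held a CHR element. This was so for 5.31% of all windows and 9.76% of the windows of S phase genes, and was not counted for the other mitosis genes. Below, capitals mark the matches on either strand. Ccnb1, with one of the largest falls, holds CCAAT boxes and no CHR match in this window, Plk1 and Cdc20 hold both elements and fell, and Cdc25b holds both and was higher at 6 h.
Ccnb1 promoter, chr13:100786437-100786736, minus strand: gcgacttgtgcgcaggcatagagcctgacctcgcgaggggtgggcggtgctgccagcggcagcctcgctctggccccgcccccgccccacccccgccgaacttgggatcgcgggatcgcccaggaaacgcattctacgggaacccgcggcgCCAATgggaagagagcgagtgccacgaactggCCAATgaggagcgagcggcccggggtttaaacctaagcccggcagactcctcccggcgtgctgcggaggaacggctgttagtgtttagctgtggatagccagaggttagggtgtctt
Plk1 promoter, chr7:122159185-122159484, plus strand: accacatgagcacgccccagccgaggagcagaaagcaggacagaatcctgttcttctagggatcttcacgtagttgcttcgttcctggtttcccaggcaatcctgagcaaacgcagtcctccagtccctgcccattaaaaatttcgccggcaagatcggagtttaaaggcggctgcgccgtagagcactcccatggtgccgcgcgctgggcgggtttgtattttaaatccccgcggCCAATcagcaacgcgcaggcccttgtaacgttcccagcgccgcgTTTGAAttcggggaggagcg
Cdc20 promoter, chr4:118437294-118437593, minus strand: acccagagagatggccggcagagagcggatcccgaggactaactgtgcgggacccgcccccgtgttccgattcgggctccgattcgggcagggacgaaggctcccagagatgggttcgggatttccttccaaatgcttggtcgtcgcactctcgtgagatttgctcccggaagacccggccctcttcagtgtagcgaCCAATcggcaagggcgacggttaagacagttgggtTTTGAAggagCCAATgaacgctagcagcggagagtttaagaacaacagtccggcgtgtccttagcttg
Cdc25b promoter, chr2:131186698-131186997, plus strand: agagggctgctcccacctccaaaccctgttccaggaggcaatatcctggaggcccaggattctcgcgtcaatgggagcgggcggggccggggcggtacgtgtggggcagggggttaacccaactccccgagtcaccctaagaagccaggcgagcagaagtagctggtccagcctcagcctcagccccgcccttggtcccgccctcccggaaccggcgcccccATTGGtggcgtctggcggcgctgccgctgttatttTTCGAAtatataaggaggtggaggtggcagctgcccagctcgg
Members fell in each class of window. The 22 tested members with both elements had a median change of -0.67 with KD and -0.61 with control supernatant, the 3 with a CCAAT box alone -0.78 and -0.71, the 2 with a CHR element alone -0.61 and -0.73, and the 5 with neither (Birc5, Mad2l1, Pttg1, Nuf2 and Nusap1) -0.68 and -0.78. A match describes letters in this window and does not show a factor on it.

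**Figure D2:**
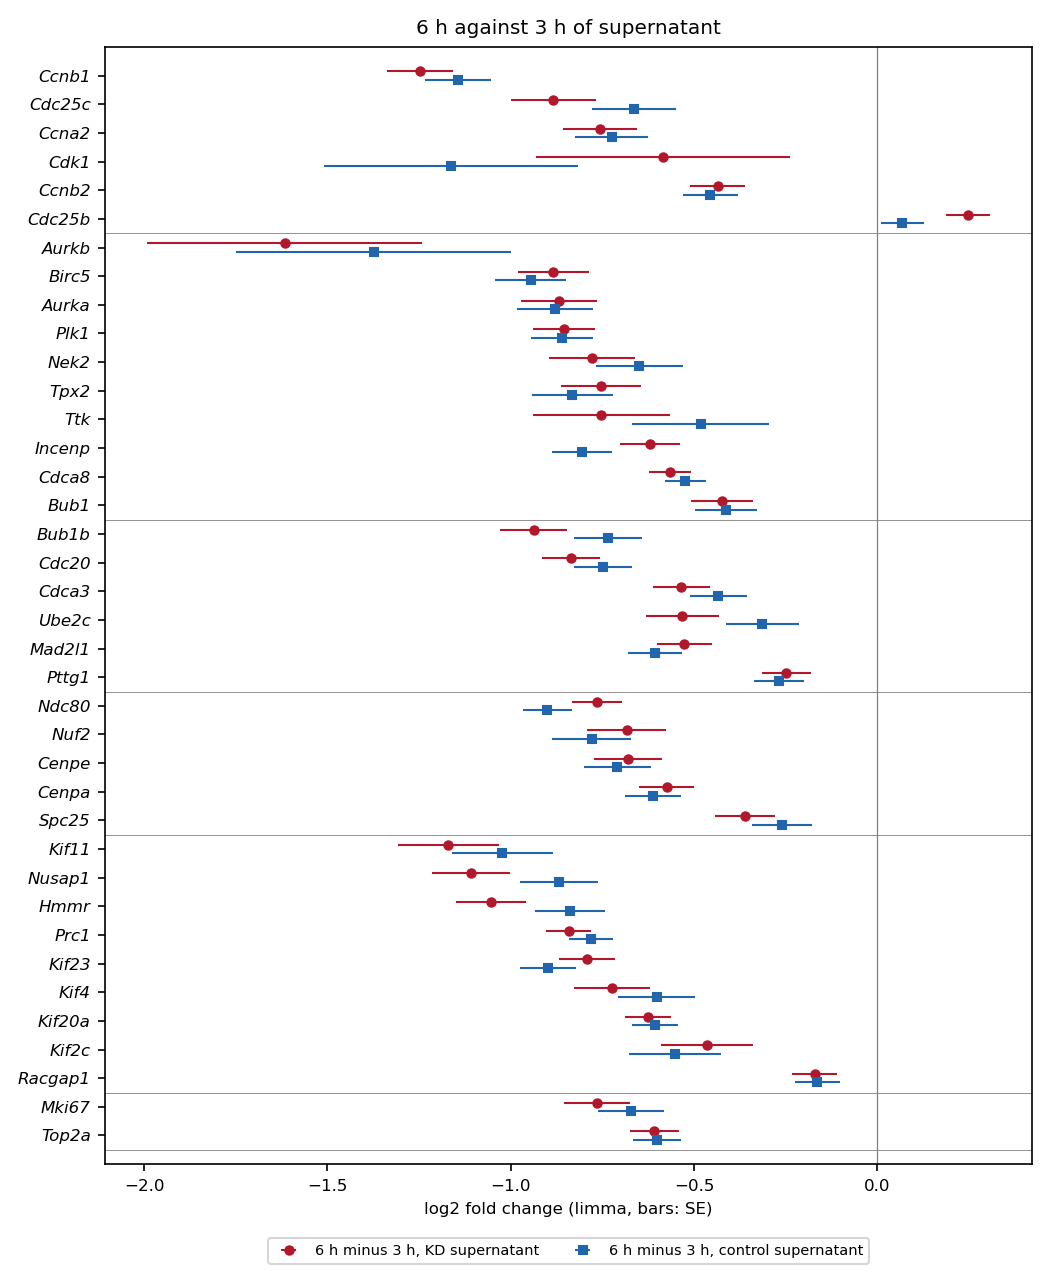
Log2 fold change of 6 h against 3 h for the 38 tested members, in rows grouped by role, with KD supernatant (red circles) and control supernatant (blue squares), and bars of 1 standard error from limma. Points lie between -1.25 and -0.16 except for Aurkb, which was not above background at 6 h and lies further left, and Cdc25b right of 0, and the bars of Cdk1 and Aurkb are the widest.

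Among the cyclins, Cdk1 and its phosphatases, 4 of 6 fell and 1 rose with KD supernatant, and 5 of 6 fell with control supernatant. For this and the other counts by role below, the shares over all tested were 22.2% lower and 17.7% higher with KD. With control supernatant they were 23.6% and 16.3%. Ccnb1, the B-type cyclin that partners Cdk1 at mitotic entry, fell with both. Its values, on the log2 scale relative to the array's 75th percentile as for all levels below, were 1.22 and 1.44 at 6 h, against 2.64 and 2.52 at 3 h, with KD supernatant. Control supernatant gave 1.35 and 1.36 at 6 h, against 2.49 and 2.51 at 3 h. The change was -1.25 ± 0.09 (adjusted p = 0.000349) with KD and -1.14 ± 0.09 (adjusted p = 0.000412) with control supernatant, to 42.1% and 45.2% of the 3 h level. No array at 6 h came near those at 3 h, and Ccnb1 passed under each of 22 other settings with either supernatant. A pair of other Ccnb1 probes changed by -1.05 and -0.94 with KD and by -0.98 and -0.99 with control supernatant. Ccnb2, the other B cyclin, changed by -0.44 ± 0.08 (adjusted p = 0.00643) with KD and -0.46 ± 0.08 (adjusted p = 0.00526) with control supernatant. Ccna2, the cyclin of S phase and G2, was at 1.35 and 1.47 at 6 h, against 2.20 and 2.13 at 3 h, with KD supernatant. Cells with control supernatant had 1.38 and 1.63 at 6 h, against 2.22 and 2.24 at 3 h. It changed by -0.76 ± 0.10 (adjusted p = 0.0024) with KD and -0.72 ± 0.10 (adjusted p = 0.00273) with control supernatant, and again the times did not overlap. Cdc25c, a phosphatase that activates Cdk1, changed by -0.88 ± 0.12 (adjusted p = 0.00227) with KD and -0.66 ± 0.12 (adjusted p = 0.00636) with control supernatant.

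Cdk1, the kinase that these cyclins activate, was at 0.93 and 0.96 at 6 h, against 1.55 and 1.51 at 3 h, with KD supernatant. Values with control supernatant were -0.24 and 0.91 at 6 h, against 1.58 and 1.42 at 3 h. All arrays of 6 h lay below those of 3 h, but control 6 h replicate 1 lay far below its replicate. The fit gave wide errors, with a change of -0.58 ± 0.35 (adjusted p = 0.233) with KD and -1.16 ± 0.35 (adjusted p = 0.0429) with control supernatant, and Cdk1 was called lower with control supernatant alone, a call kept under 10 of 22 other settings (adjusted p from 0.000683 to 0.163). Without control 6 h replicate 1 the changes were alike, -0.58 (adjusted p = 0.00338) with KD and -0.59 (adjusted p = 0.00727) with control supernatant. Without control 6 h replicate 2 the change with control supernatant was -1.74 (adjusted p = 0.000683). Another Cdk1 probe changed by -0.84 with KD supernatant, with its 6 h arrays below its 3 h arrays. With control supernatant that probe changed by -0.05, with overlapping arrays.

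Cdc25b, another Cdk1-activating phosphatase, was the one member measured higher at 6 h. Its values were 1.16 and 1.16 at 6 h, against 0.91 and 0.92 at 3 h, with KD supernatant. Under control supernatant it was at 1.28 and 1.23 at 6 h, against 1.15 and 1.22 at 3 h. It rose by 0.25 ± 0.06 (adjusted p = 0.0206) with KD supernatant, and with control supernatant the change of 0.07 ± 0.06 (adjusted p = 0.416) did not pass, and was -0.13 with the arrays centred on their medians. The KD 3 h arrays were the low ones, below the other 6. The call with KD supernatant was kept under 14 of 22 other settings, with changes from 0.16 to 0.41 over all 22. It was lost without any one of the 4 KD arrays, with adjusted p from 0.0809 to 0.1.

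**Figure D3:**
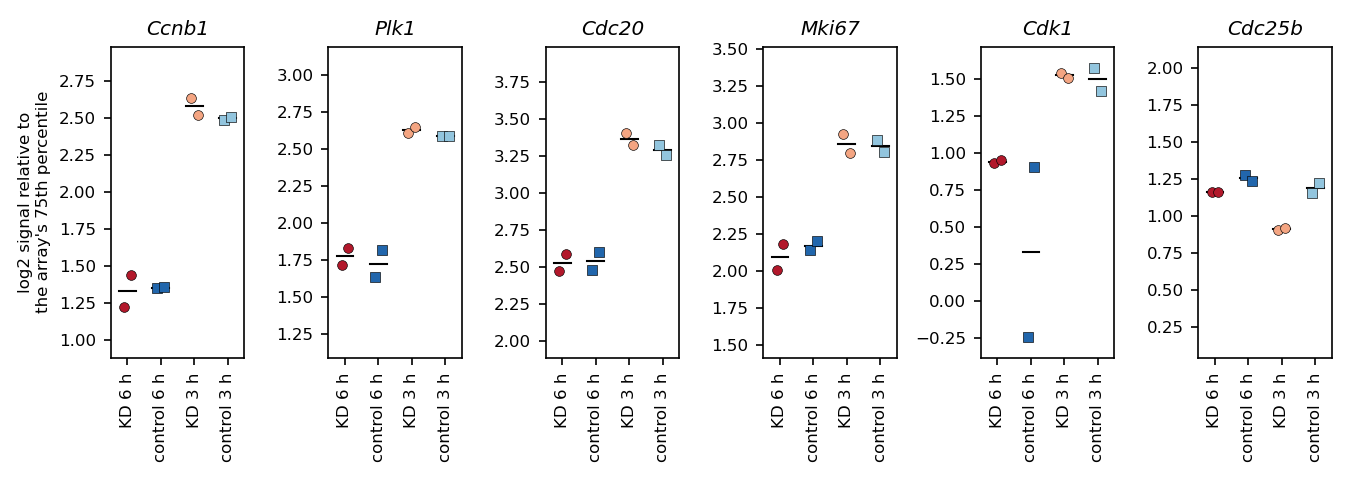
Log2 signal relative to each array's 75th percentile for 6 members, 1 point per array and a line at the group mean, with every panel spanning the same log2 range. Ccnb1, Plk1, Cdc20 and Mki67 are lower in both 6 h groups, Cdk1 has 1 control 6 h array at -0.24 and the other at 0.91, and Cdc25b is lowest in the KD 3 h group.

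Of the mitotic kinases and chromosomal passenger genes with signal above background at both times, 9 of 9 fell with KD supernatant and 8 of 9 with control supernatant. Plk1, the Polo kinase of centrosomes, kinetochores and cytokinesis, was at 1.72 and 1.83 at 6 h, against 2.61 and 2.65 at 3 h, with KD supernatant. The control supernatant values were 1.63 and 1.82 at 6 h, against 2.59 and 2.59 at 3 h. Its change was -0.85 ± 0.08 (adjusted p = 0.000888) with KD and -0.86 ± 0.08 (adjusted p = 0.000812) with control supernatant, to 55.3% and 55.1% of the 3 h level. Aurka, the Aurora kinase of centrosomes and spindle poles, was at 1.55 and 1.80 at 6 h, against 2.54 and 2.54 at 3 h, with KD supernatant. Control supernatant gave 1.56 and 1.64 at 6 h, against 2.41 and 2.55 at 3 h. Its change was -0.87 ± 0.10 (adjusted p = 0.00164) with KD and -0.88 ± 0.10 (adjusted p = 0.00153) with control supernatant. Tpx2, which activates Aurka on microtubules, changed by -0.75 ± 0.11 (adjusted p = 0.00336) with KD and -0.83 ± 0.11 (adjusted p = 0.00226) with control supernatant. The 6 h and 3 h arrays of all of these genes were apart in level.

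The chromosomal passenger complex corrects wrong attachments of chromosomes to the spindle, and its genes moved together. Birc5, or survivin, was at 2.77 and 2.80 at 6 h, against 3.75 and 3.59 at 3 h, with KD supernatant. Cells with control supernatant had 2.95 and 2.75 at 6 h, against 3.85 and 3.75 at 3 h. Its change was -0.88 ± 0.10 (adjusted p = 0.00126) with KD and -0.95 ± 0.10 (adjusted p = 0.000951) with control supernatant. Incenp, the scaffold, changed by -0.62 ± 0.08 (adjusted p = 0.00241) with KD and -0.81 ± 0.08 (adjusted p = 0.000918) with control supernatant. Cdca8, or borealin, changed by -0.57 ± 0.06 (adjusted p = 0.000899) with KD and -0.52 ± 0.06 (adjusted p = 0.0011) with control supernatant. All of them were lower on each array of 6 h than on any of 3 h. Aurkb, the kinase of the complex, was dim: it was well above background on both control 3 h arrays and on 1 KD 3 h array, and on none at 6 h. Its measured values were -6.47 and -6.00 at 6 h, against -4.10 and -5.14 at 3 h, with KD supernatant. Values with control supernatant were -5.94 and -5.67 at 6 h, against -4.21 and -4.65 at 3 h. Only a bound can be given: the 6 h arrays were set to their lowest signal among probes well above background, or to the Aurkb signal where that was higher. Against the 3 h mean Aurkb was then at least 1.02-fold lower with control supernatant. With KD supernatant the same reckoning gave 1.16-fold. That is not a firm bound, since Aurkb was well above background on only 1 of the KD 3 h arrays. The fit on its measured values, below background at 6 h, gave an adjusted p = 0.0185 with KD and 0.0318 with control supernatant, which do not belong to these fold values. It entered the test through its 3 h arrays alone.

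Of the remaining kinases, Bub1, which recruits checkpoint proteins to kinetochores, changed by -0.42 ± 0.09 (adjusted p = 0.0113) with KD and -0.41 ± 0.09 (adjusted p = 0.0119) with control supernatant. This was the smallest change among the kinases, measured by a probe with 10 spots per array. Nek2, which acts in centrosome separation, changed by -0.78 ± 0.12 (adjusted p = 0.00392) with KD and -0.65 ± 0.12 (adjusted p = 0.00748) with control supernatant. Ttk, the checkpoint kinase also known as Mps1, changed by -0.75 ± 0.19 (adjusted p = 0.0237) with KD and -0.48 ± 0.19 (adjusted p = 0.094) with control supernatant, so it passed with KD supernatant alone, although each of its arrays at 6 h was below each at 3 h. The difference between the changes with the supernatants was -0.27 ± 0.26 for Ttk (adjusted p = 0.761).

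The spindle checkpoint keeps the APC/C inactive until all chromosomes are attached, and genes on both sides of that switch fell, 6 of 6 with KD and 5 of 6 with control supernatant. Cdc20, the activator of the APC/C that the checkpoint restrains, was at 2.47 and 2.59 at 6 h, against 3.40 and 3.32 at 3 h, with KD supernatant. Under control supernatant it was at 2.48 and 2.60 at 6 h, against 3.33 and 3.26 at 3 h. It changed by -0.84 ± 0.08 (adjusted p = 0.000784) with KD and -0.75 ± 0.08 (adjusted p = 0.00105) with control supernatant, to 56% and 59.5%. Bub1b, or BubR1, an inhibitor of Cdc20, was at -0.68 and -0.44 at 6 h, against 0.38 and 0.37 at 3 h, with KD supernatant. The control supernatant values were -0.33 and -0.38 at 6 h, against 0.38 and 0.38 at 3 h. Its change was -0.94 ± 0.09 (adjusted p = 0.000855) with KD and -0.73 ± 0.09 (adjusted p = 0.00186) with control supernatant. Both were lower on every 6 h array than on any 3 h array. Mad2l1, the other checkpoint inhibitor of Cdc20, changed by -0.53 ± 0.07 (adjusted p = 0.00309) with KD and -0.61 ± 0.07 (adjusted p = 0.00178) with control supernatant. Ube2c, the ubiquitin-conjugating enzyme that works with the APC/C, was at 1.89 and 2.03 at 6 h, against 2.54 and 2.44 at 3 h, with KD supernatant. Control supernatant gave 1.86 and 2.09 at 6 h, against 2.26 and 2.31 at 3 h. Its fall passed with KD, -0.53 ± 0.10 (adjusted p = 0.00869), and missed the threshold with control supernatant, -0.31 ± 0.10 (adjusted p = 0.0522). Cdca3, which promotes mitotic entry, changed by -0.53 ± 0.08 (adjusted p = 0.00332) with KD and -0.43 ± 0.08 (adjusted p = 0.00703) with control supernatant. Pttg1, or securin, which holds separase inactive until anaphase, had one of the smallest changes, -0.25 ± 0.07 (adjusted p = 0.0329) with KD and -0.27 ± 0.07 (adjusted p = 0.0252) with control supernatant. Its call was kept under 10 of 22 other settings with KD and 13 of 22 with control supernatant, and was lost without any one of the 4 KD arrays or either control 3 h array with KD, and without either control 3 h array or control 6 h replicate 2 with control supernatant (adjusted p from 0.0561 to 0.165).

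Of the 6 kinetochore and centromere genes, 5 were tested, all 5 fell with KD supernatant and 4 with control supernatant. Cenpa, the histone H3 variant that marks centromeres, was at 0.78 and 0.82 at 6 h, against 1.42 and 1.33 at 3 h, with KD supernatant. Cells with control supernatant had 0.70 and 0.75 at 6 h, against 1.27 and 1.41 at 3 h. It changed by -0.57 ± 0.08 (adjusted p = 0.0024) with KD and -0.61 ± 0.08 (adjusted p = 0.00186) with control supernatant, with no overlap of the times. The Ndc80 complex couples kinetochores to microtubules, and 3 of its subunits were measured. Ndc80 changed by -0.76 ± 0.07 (adjusted p = 0.000623) with KD and -0.90 ± 0.07 (adjusted p = 0.000354) with control supernatant. Nuf2 changed by -0.68 ± 0.11 (adjusted p = 0.00453) with KD and -0.78 ± 0.11 (adjusted p = 0.00271) with control supernatant. For Spc25 the change was -0.36 ± 0.08 (adjusted p = 0.017) with KD and -0.26 ± 0.08 (adjusted p = 0.0511) with control supernatant. Spc25 thus passed with KD supernatant alone, and the difference between its changes was -0.10 ± 0.12 (adjusted p = 0.79). Cenpe, a kinetochore motor, changed by -0.68 ± 0.09 (adjusted p = 0.0026) with KD and -0.71 ± 0.09 (adjusted p = 0.00215) with control supernatant. Cenpf, a large kinetochore protein, was well above background on none of the 8 arrays and was not tested.

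Kinesins, spindle and midzone genes held several of the largest falls, with 8 of 9 lower with either supernatant. Kif11, the motor that pushes spindle poles apart, was at -3.10 and -2.74 at 6 h, against -1.77 and -1.73 at 3 h, with KD supernatant. Values with control supernatant were -2.81 and -2.83 at 6 h, against -1.91 and -1.69 at 3 h. It changed by -1.17 ± 0.14 (adjusted p = 0.00155) with KD and -1.02 ± 0.14 (adjusted p = 0.00246) with control supernatant, to 44.4% and 49.2% of the 3 h level. The 2 times did not overlap. Nusap1, which bundles spindle microtubules, was at -0.79 and -0.71 at 6 h, against 0.41 and 0.31 at 3 h, with KD supernatant. Under control supernatant it was at -0.64 and -0.40 at 6 h, against 0.27 and 0.42 at 3 h. It changed by -1.11 ± 0.11 (adjusted p = 0.000791) with KD and -0.87 ± 0.11 (adjusted p = 0.00171) with control supernatant, and no array of 6 h reached one of 3 h. Hmmr, which binds microtubules at spindle poles, was at 0.10 and 0.31 at 6 h, against 1.32 and 1.20 at 3 h, with KD supernatant. The control supernatant values were 0.25 and 0.34 at 6 h, against 1.09 and 1.18 at 3 h. It changed by -1.05 ± 0.10 (adjusted p = 0.000686) with KD and -0.84 ± 0.10 (adjusted p = 0.00135) with control supernatant, and its times were likewise apart.

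Kif23 and Racgap1, which form the centralspindlin complex of the cleavage plane, were called apart: Kif23 fell and Racgap1 did not pass. Kif23 changed by -0.79 ± 0.08 (adjusted p = 0.000816) with KD and -0.90 ± 0.08 (adjusted p = 0.000509) with control supernatant. Racgap1 was at 3.03 and 2.98 at 6 h, against 3.17 and 3.18 at 3 h, with KD supernatant. Control supernatant gave 3.16 and 3.08 at 6 h, against 3.29 and 3.28 at 3 h. Its changes of -0.17 ± 0.06 (adjusted p = 0.0714) with KD and -0.16 ± 0.06 (adjusted p = 0.0826) with control supernatant did not pass, although all 4 arrays at 6 h lay just below the 4 at 3 h. Prc1, which bundles midzone microtubules, changed by -0.84 ± 0.06 (adjusted p = 0.000353) with KD and -0.78 ± 0.06 (adjusted p = 0.000406) with control supernatant. Kif20a, a kinesin of cytokinesis, changed by -0.63 ± 0.06 (adjusted p = 0.000887) with KD and -0.61 ± 0.06 (adjusted p = 0.000923) with control supernatant. Kif4, a chromosome-bound kinesin, changed by -0.72 ± 0.10 (adjusted p = 0.00332) with KD and -0.60 ± 0.10 (adjusted p = 0.0064) with control supernatant. Kif2c, which takes microtubule ends apart at centromeres, changed by -0.46 ± 0.13 (adjusted p = 0.0309) with KD and -0.55 ± 0.13 (adjusted p = 0.0167) with control supernatant.

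Mki67, the Ki-67 antigen used as a mark of cycling cells, was at 2.00 and 2.18 at 6 h, against 2.92 and 2.79 at 3 h, with KD supernatant. Cells with control supernatant had 2.14 and 2.20 at 6 h, against 2.88 and 2.80 at 3 h. It changed by -0.77 ± 0.09 (adjusted p = 0.00152) with KD and -0.67 ± 0.09 (adjusted p = 0.00237) with control supernatant, to 58.8% and 62.8%. Top2a, the topoisomerase that untangles sister chromosomes, was at 1.01 and 1.00 at 6 h, against 1.62 and 1.61 at 3 h, with KD supernatant. Values with control supernatant were 0.94 and 1.06 at 6 h, against 1.58 and 1.63 at 3 h. Its change was -0.61 ± 0.07 (adjusted p = 0.00119) with KD and -0.60 ± 0.07 (adjusted p = 0.00119) with control supernatant. Neither gene had an array of 6 h above one of 3 h. Across members the changes with the 2 supernatants went together: Pearson's r over 38 genes was 0.87, and 0.91 over 36 without Cdk1 and Aurkb, as a description of genes that share the same arrays. Other probes of the same genes moved the same way, 15 of 15 tested probes of 12 members being lower at 6 h with both supernatants, and for 11 of them the 4 arrays of 6 h lay below the 4 of 3 h.

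The other comparison the groups allow is KD against control supernatant. For the mitosis and G2/M genes no difference between them passed the test. At 6 h 0 of 38 members were called, where 2.28% of all genes and probes tested were, and at 3 h 0 of 38, where 0.244% were. Averaged over both times 0 were called, against 3.11% of all tested, and the difference between the effects at 6 h and at 3 h was called for 0 members and 0% of all tested. At an unadjusted p under 0.05 there were 0 members at 6 h, where 4983 of all 25804 tested (19.3%) were, and 1 at 3 h (Cdc25b), where 2729 (10.6%) were. There were 2 for the average (Cdc25b and Racgap1), where 5086 (19.7%) were, and 0 for the difference, where 2267 (8.79%) were. The median member differed by -0.02 at 6 h and by 0.02 at 3 h. At 6 h 36 members, and at 3 h 37, differed by less than 0.25 in either direction. These counts use the brightest probe of each gene. Other tested probes differed by more for Tpx2 (-0.71 at 3 h, -0.43 at 6 h) and Cdk1 (0.54 at 3 h, -0.26 at 6 h). Those of Mad2l1 differed by 0.31 and 0.48 at 6 h. Other tested probes of the remaining genes differed by less than 0.25, and no such probe was tested singly. The 95% interval of a member, not adjusted for the number of tests, extended 0.22 on either side in the median. Differences of that size and larger could be missed here, since Cdc25b at 3 h, at -0.27, did not pass the adjusted threshold. For Ccnb1 the interval ran from -0.25 to 0.20 at 6 h and from -0.14 to 0.30 at 3 h, and for Top2a from -0.16 to 0.17 at 6 h and from -0.15 to 0.17 at 3 h.

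**Figure D4:**
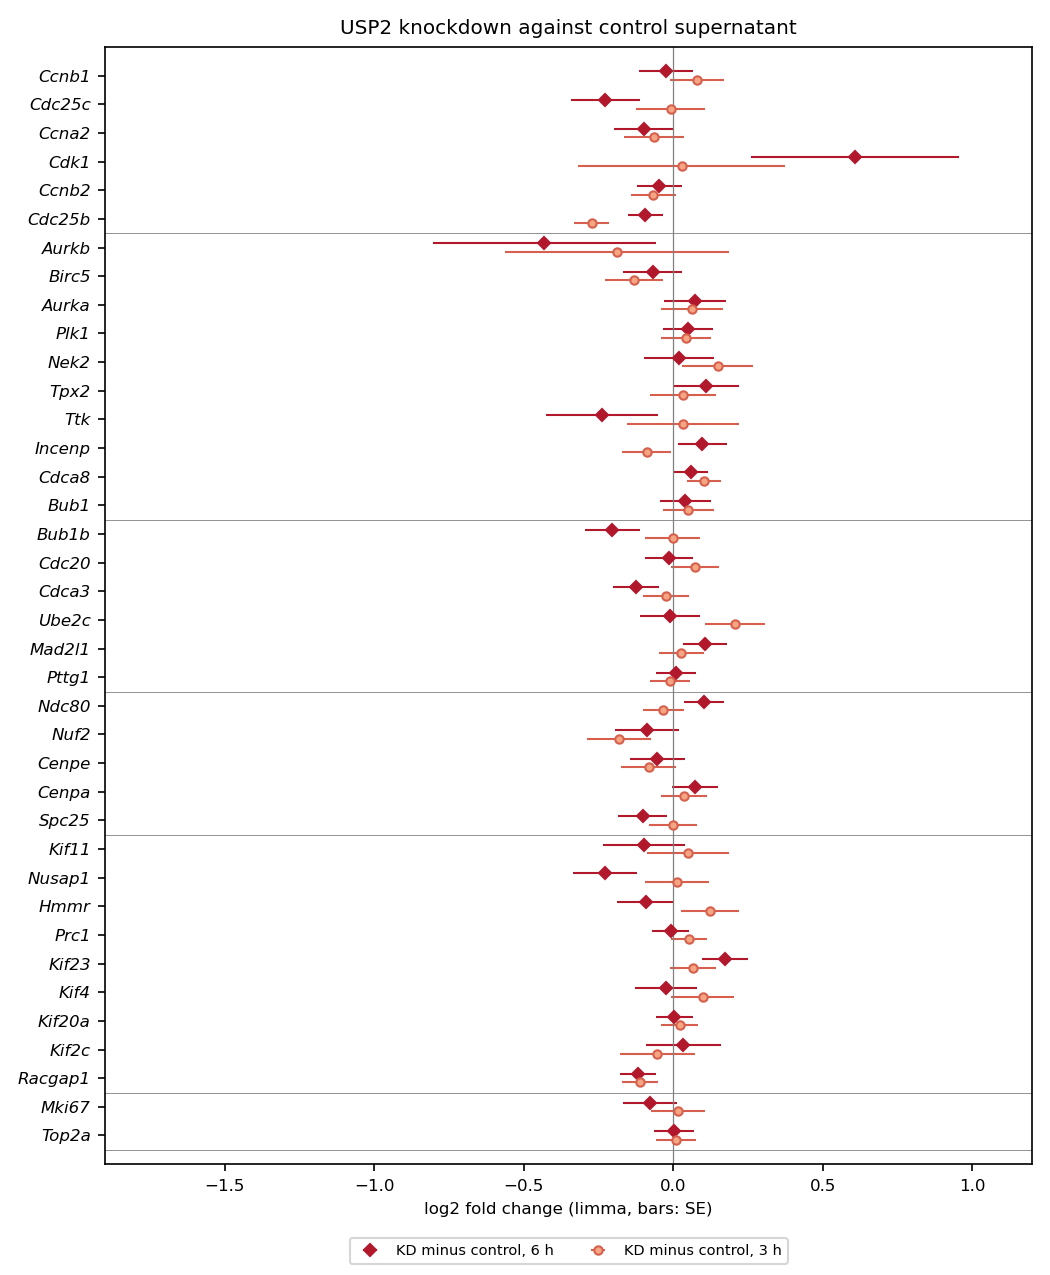
Log2 fold change of KD against control supernatant for the 38 tested members, in rows grouped by role, at 6 h (red diamonds) and 3 h (pale circles), with bars of 1 standard error from limma. Most points lie within 0.25 of 0, and those of Cdk1 and Aurkb at 6 h lie further out with wide bars.

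Cdc25b had the smallest p for KD against control supernatant. At 3 h it was at 0.91 and 0.92 with KD, against 1.15 and 1.22 with control supernatant, and at 6 h at 1.16 and 1.16 with KD, against 1.28 and 1.23 with control supernatant. The KD arrays were the lower ones at both times. The difference was -0.09 ± 0.06 (adjusted p = 0.432) at 6 h, -0.27 ± 0.06 (adjusted p = 0.183) at 3 h and -0.18 ± 0.04 (adjusted p = 0.0893) averaged. The averaged difference passed under 1 other setting, a variance model with trend and robust estimation (adjusted p = 0.0443, where all other settings ranged up to 0.941). Racgap1 came next for the average, at -0.11 ± 0.04 (adjusted p = 0.225), with the KD arrays the lower ones at 6 h, 3.03 and 2.98 with KD, against 3.16 and 3.08 with control supernatant, and at 3 h, 3.17 and 3.18 with KD, against 3.29 and 3.28 with control supernatant.

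Other members with the smallest p at 6 h were Kif23 at 0.17 ± 0.08 (adjusted p = 0.29), Bub1b at -0.20 ± 0.09 (adjusted p = 0.295), Nusap1 at -0.23 ± 0.11 (adjusted p = 0.306) and Cdc25c at -0.23 ± 0.12 (adjusted p = 0.342). At 3 h they were Ube2c at 0.21 ± 0.10 (adjusted p = 0.556), Racgap1 at -0.11 ± 0.06 (adjusted p = 0.616) and Cdca8 at 0.10 ± 0.06 (adjusted p = 0.619). Averaged over the times, Kif23 differed by 0.12 ± 0.05 (adjusted p = 0.298) and Cdca8 by 0.08 ± 0.04 (adjusted p = 0.334). For the difference of the effects the members with the smallest p were Cdc25b at 0.18 ± 0.08 (adjusted p = 0.605), Nusap1 at -0.24 ± 0.15 (adjusted p = 0.676), Incenp at 0.19 ± 0.12 (adjusted p = 0.676) and Hmmr at -0.21 ± 0.14 (adjusted p = 0.678). None of these passed. At 6 h the arrays of KD and control supernatant did not overlap for 15 members, 8 lower with KD (21.6% of all tested) and 7 higher (26%). At 3 h they did not overlap for 10, 4 lower (26.8%) and 6 higher (20.5%).

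Cdk1 had the largest nominal difference at 6 h, 0.61 ± 0.35 (adjusted p = 0.389), from values of 0.93 and 0.96 with KD, against -0.24 and 0.91 with control supernatant. It rested on control 6 h replicate 1. Without that array it was 0.03 (adjusted p = 0.895), and without the other control 6 h array it was 1.18 (adjusted p = 0.00742), the one setting in which a member was called at 6 h. Another Cdk1 probe, well above background on all 8 arrays, differed by -0.26 at 6 h. Aurkb, below background on every array of 6 h, gives no fold there.

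Other genes of the cell cycle were read from lists by role, for the change from 3 h. Of 66 other mitosis genes tested, 31 fell and 2 rose with KD, and 34 fell and 0 rose with control supernatant, with medians of -0.33 and -0.33. These are 47.0% lower with KD and 51.5% with control supernatant, where 22.2% and 23.6% of all tested were lower. The 2 that rose with KD were the kinesin Kif18a (0.44) and Trip13 (0.39), which takes checkpoint complexes apart. The call of Kif18a was lost without KD 3 h replicate 2 or either KD 6 h array (adjusted p from 0.0709 to 0.113). Among them Depdc1a changed by -1.01 ± 0.10 (adjusted p = 0.000849), Ckap2l by -0.82 ± 0.08 (adjusted p = 0.00079) and Cks2, which binds Cdk1, by -0.58 ± 0.06 (adjusted p = 0.000865) with KD supernatant. With control supernatant Plk4, the kinase of centriole duplication, changed by -0.72 ± 0.06 (adjusted p = 0.000607), Pbk by -0.72 ± 0.07 (adjusted p = 0.000793) and Anln, a scaffold of cytokinesis, by -0.76 ± 0.08 (adjusted p = 0.000855). Aspm, which acts at spindle poles, changed by -0.59 ± 0.06 (adjusted p = 0.000928) with KD and by -0.63 ± 0.06 (adjusted p = 0.000701) with control supernatant. Here and in the lists below most genes were named by the smallest p with each supernatant. A value given for 1 supernatant alone does not mark a difference between the changes, which was called for 0% of all tested.

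**Figure D5:**
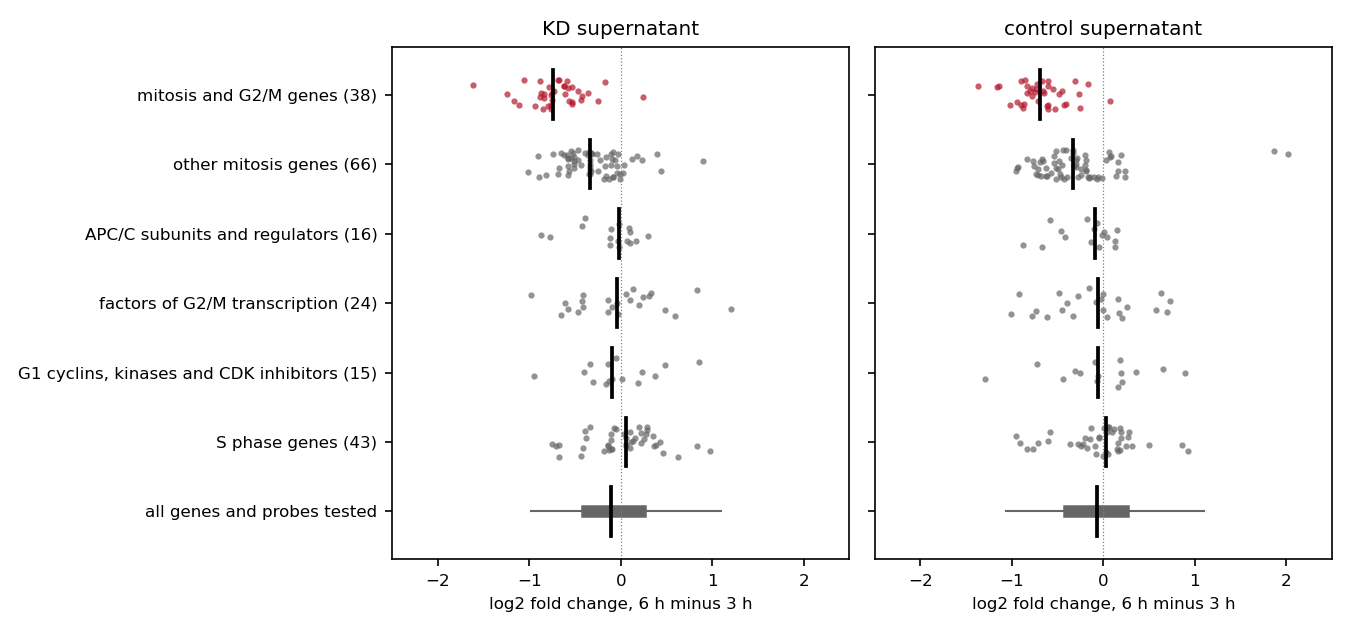
Log2 fold change of 6 h against 3 h with KD supernatant (left) and control supernatant (right), with 1 point per gene of each list (number tested in brackets) and a black line at its median. For all genes and probes tested the thick bar spans the middle 50% and the thin line the middle 90%, and the mitosis and G2/M genes have the lowest median of these lists, -0.74 and -0.69, against medians from -0.33 to 0.06 in the others.

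Of 16 subunits and regulators of the APC/C tested, 4 fell and 1 rose with KD, or 25% and 6.25%, and 5 fell and 0 rose with control supernatant, or 31.2% lower. Among all tested 22.2% were lower and 17.7% higher with KD, and 23.6% lower and 16.3% higher with control supernatant. The E2 enzyme Ube2s changed by -0.88 ± 0.08 (adjusted p = 0.000756) with KD and -0.88 ± 0.08 (adjusted p = 0.0007) with control supernatant. The subunit Cdc27 changed by -0.78 ± 0.08 (adjusted p = 0.000906) with KD and -0.67 ± 0.08 (adjusted p = 0.00137) with control supernatant. Subunit Anapc7 changed by -0.39 ± 0.08 (adjusted p = 0.013) with KD and -0.42 ± 0.08 (adjusted p = 0.0102) with control supernatant. The other APC/C genes called were Cdc16 with both supernatants, by -0.42 with KD and -0.58 ± 0.09 (adjusted p = 0.0042) with control, and Cdc26 with control supernatant (-0.47). The mean of all tested probes gave Anapc7 -0.13 (adjusted p = 0.43) with KD and -0.20 (adjusted p = 0.244) with control supernatant. Its calls were kept under 14 and 15 of 22 other settings, and were lost without any one KD array with KD, and without control 3 h replicate 1 with control supernatant. The call of Cdc16 with KD was lost without KD 3 h replicate 2 or KD 6 h replicate 1 (adjusted p from 0.0677 to 0.0804), and that of Cdc26 without any one control 3 h or KD array (adjusted p from 0.0695 to 0.147). Fzr1, the APC/C activator of late mitosis and G1, rose by 0.30 ± 0.06 (adjusted p = 0.00983) with KD supernatant, a call kept under 15 of 22 other settings. It was lost without KD 3 h replicate 1 (adjusted p = 0.062) or KD 6 h replicate 2 (adjusted p = 0.0536), and the mean of all tested Fzr1 probes was 0.0033 (adjusted p = 0.976).

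Of 24 factors that control G2/M transcription, 7 fell and 4 rose with KD, or 29.2% and 16.7%, against 22.2% and 17.7% of all tested. With control supernatant 9 fell and 4 rose, or 37.5% and 16.7%, against 23.6% and 16.3%. Lin54, which reads the CHR element, changed by -0.66 ± 0.06 (adjusted p = 0.000746) with KD and -0.78 ± 0.06 (adjusted p = 0.000415) with control supernatant, and the repressor E2f8 by -0.98 ± 0.09 (adjusted p = 0.000781) with KD and -1.01 ± 0.09 (adjusted p = 0.000645) with control supernatant. E2f3 changed by -0.92 ± 0.09 (adjusted p = 0.000869) with control supernatant. Rbl1, the pocket protein p107, rose by 0.83 ± 0.09 (adjusted p = 0.001) with KD supernatant. The genes that rose with each supernatant were E2f1, E2f2, Rbl1 and Tfdp2. With KD the call of E2f1 was lost without either KD 3 h array or KD 6 h replicate 1, and that of Tfdp2 without any one KD array (adjusted p from 0.0514 to 0.0943). With control supernatant that of Tfdp2 was lost without either control 3 h array (adjusted p from 0.0562 to 0.0622). E2f2 rose by 1.21 ± 0.08 (adjusted p = 0.000236) with KD and by 0.73 ± 0.08 (adjusted p = 0.00101) with control supernatant. E2f2 was also the one gene of the cell cycle lists called between the supernatants: at 6 h it was at -1.08 and -1.13 with KD, against -1.62 and -1.52 with control supernatant, a difference of 0.46 ± 0.08 (adjusted p = 0.0477). That call was kept under 8 of 22 other settings (adjusted p from 0.0277 to 0.7), and its difference from the effect at 3 h did not pass (0.48 ± 0.11, adjusted p = 0.406).

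Genes of S phase were called at shares near those of all genes. Of 43 tested, 8 fell and 10 rose with KD, or 18.6% and 23.3%, against 22.2% and 17.7% of all tested. With control supernatant 10 fell and 8 rose, or 23.3% and 18.6%, against 23.6% and 16.3%. Their medians were 0.06 with KD and 0.03 with control supernatant. The origin protein Orc6 changed by -0.71 ± 0.07 (adjusted p = 0.000718) with KD and -0.77 ± 0.07 (adjusted p = 0.000505) with control supernatant. The clamp loader subunit Rfc5 rose by 0.83 ± 0.08 (adjusted p = 0.000789) with KD and 0.86 ± 0.08 (adjusted p = 0.000649) with control supernatant. Pole, the catalytic subunit of DNA polymerase epsilon, rose by 0.63 ± 0.06 (adjusted p = 0.000944) and Chaf1b, of the chromatin assembly factor, by 0.47 ± 0.06 (adjusted p = 0.00165) with KD supernatant. The flap nuclease Fen1 changed by -0.91 ± 0.08 (adjusted p = 0.000686) and Slbp, which binds histone mRNA, by -0.84 ± 0.10 (adjusted p = 0.00145) with control supernatant.

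Of 15 tested G1 cyclins, kinases and CDK inhibitors, 4 fell and 3 rose with KD, or 26.7% and 20%, and 4 fell and 2 rose with control supernatant, or 26.7% and 13.3%, shares near those of all tested (22.2% and 17.7%, and 23.6% and 16.3%). Cdc25a, the phosphatase of the G1/S transition, changed by -0.95 ± 0.08 (adjusted p = 0.000486) with KD and -1.29 ± 0.08 (adjusted p = 0.000204) with control supernatant. Also called lower were Ccne1, Cdk2 and Cdkn2c with KD, and Ccne1, Cdk2 and Ccnd2 with control supernatant. Of these, the calls of Ccne1, Cdk2 and Cdkn2c with KD were lost in leaving out single arrays (adjusted p from 0.0511 to 0.177). For Ccne1 the array was KD 3 h replicate 2 or either KD 6 h one, for Cdk2 either KD 3 h one or KD 6 h replicate 1, and for Cdkn2c any KD one or either control 3 h one. With control supernatant the calls of Cdk2 and Ccnd2 were lost without either control 3 h array, and also without control 6 h replicate 1 for Cdk2 and replicate 2 for Ccnd2 (adjusted p from 0.0565 to 0.101). The CDK inhibitor Cdkn1b, or p27, rose by 0.86 ± 0.08 (adjusted p = 0.000718) with KD and 0.89 ± 0.08 (adjusted p = 0.000593) with control supernatant, and Cdkn2b, or p15, by 0.48 ± 0.07 (adjusted p = 0.00325) with KD and 0.65 ± 0.07 (adjusted p = 0.00108) with control supernatant. Cdkn2d, the inhibitor p19, rose by 0.37 ± 0.08 (adjusted p = 0.0126) with KD, a call lost without any one of the 4 KD arrays (adjusted p from 0.053 to 0.0679). The G1 cyclin Ccne1 changed by -0.72 ± 0.08 (adjusted p = 0.00117) with control supernatant.

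The genes whose profile over the 8 arrays was most like the mean of the members were looked for among all other genes tested. Pearson's r with that mean was 0.999 for Tbc1d15, 0.998 for Bcl2l2 and Mbnl2, and 0.997 for Nr1d2 and Grpel1, a description over 8 arrays that share their scaling. The members' mean was 0.46 and 0.54 with KD and 0.48 and 0.57 with control supernatant at 6 h, against 1.24 and 1.16 with KD and 1.20 and 1.20 with control supernatant at 3 h. Tbc1d15, for example, was at 1.32 and 1.40 with KD and 1.37 and 1.43 with control supernatant at 6 h, against 2.57 and 2.39 with KD and 2.46 and 2.45 with control supernatant at 3 h. It changed by -1.12 ± 0.08 (adjusted p = 0.000362) with KD and -1.06 ± 0.08 (adjusted p = 0.000403) with control supernatant.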

How the data were processed

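Total RNA was measured on 8 one-colour arrays, 2 per group, called biological replicates in the labels, with no word on separate cultures or supernatant batches, so p-values measure the spread between these samples. The authors' deposited scanner output (from Feature Extraction version 10.7.3.1 by Agilent, as the submitters' processing notes state) holds a background-subtracted processed intensity per spot, per the file headers, and median spot and background intensities used for 1 alternative. A deposited table of log2 values equalled the scanner's log2 signals apart from a shift per array (correlation 1.00), with medians of -4.11 and -4.22 for KD 6 h, -3.95 and -4.05 for control 6 h, -4.22 and -4.23 for KD 3 h and -4.14 and -4.17 for control 3 h. Its scale is thus log2 and its centring per array. The 75th percentile of its values lay from -0.000443 (control 3 h replicate 1) to -1.91e-05 (KD 3 h replicate 2). It was used as an alternative, which nearly repeats the reported scaling.

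Log2 processed signals were scaled by each array's 75th percentile, without control spots and with outlier spots left out before spots of a probe were averaged. No spot was saturated. The array's transcript accession gave 27235 of 55681 probes a RefSeq gene name, and the symbol did so for 20. Probes well above background on both arrays of a group were kept, and the brightest represented a gene. Group means were fitted with limma 3.58.1 in R 4.3.3 (lmFit, eBayes) on 25804 genes and unnamed probes, with Benjamini-Hochberg adjustment over all, and passed at an adjusted p under 0.05. The fit was tested on simulated data. The ± values are standard errors of that fit, whose precision is limited by the number of arrays. Promoters came from RefSeq (GRCm38.p6), used otherwise for names. Figures were drawn with matplotlib 3.10.9.

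The members and lists were chosen with earlier results of these data known. Named were 12 members chosen by role, up to 5 called members with the largest change in each direction per comparison, or the 4 with the smallest p where under 4 were called, up to 4 called genes with the smallest p of each other list, and the 5 genes most like the members' mean. Other members are given to account for all, and list genes outside the rule were named after their values were seen, where a count was 5 or fewer.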

Additional observations from a re-analysis of the deposited data

How the results depend on the processing

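With the arrays scaled to the spike-in transcripts, chosen after the data were seen, 10 members were called with KD supernatant between 6 h and 3 h, against 36 as reported, and 1 with control supernatant, against 33. Without scaling the counts were 12 and 18. The cause of the lost calls was not tested. The members' median stayed 0.51 to 0.80 below that of all genes with either supernatant under all 22 other settings. Those settings among them that only shift whole arrays could barely change this gap, so they do not test it. Leaving out 1 array at a time put the members' median change from 3 h between -0.77 and -0.69 with KD and between -0.72 and -0.63 with control supernatant. For KD against control it put their median between -0.05 and 0.03 at 6 h and between -0.01 and 0.04 at 3 h. Cdk1 stood out without control 6 h replicate 2, with a difference of 1.18 at 6 h. A variance model with trend and robust estimation called 1 member averaged over the times, Cdc25b. No other setting that kept 2 arrays per group called a member between the supernatants. Between the supernatants, direction turned for Kif23 at 6 h with spike-in scaling (-0.0027), for Racgap1 averaged with median centring (0.0158), and for the difference of effects of Cdc25b (-0.10) and Incenp (-0.10) with spike-in scaling. None of these had passed as reported. Over time with control supernatant, spike-in scaling turned Bcl2l2 (0.0339), Ccnd2 (0.0861) and Pttg1 (0.12), which had passed, and Ube2c (0.0774), Spc25 (0.13) and Racgap1 (0.23), which had not. Racgap1 also turned with quantile normalization (0.0216) and Cdc25b with median centring (-0.13), and neither had passed.

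Replicate numbers did not pair the arrays: deviations of same-numbered arrays correlated at -0.05 to 0.09 between groups. With a replicate block 36 members were called with KD and 31 with control supernatant over time, and 0 between the supernatants. Median spot intensity stood in for the mean in the normexp alternative. The fit on the compared groups alone could not be made for the average and the difference of effects. With 2 arrays per group, the unadjusted 95% interval of a typical member extended about 0.22 on either side on the log2 scale. Differences of that size and larger between the supernatants could miss the adjusted threshold. Aurkb and Cenpf were limited by signal near background.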
